A study of Homo sapiens with 4 samples.

Results

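The mitosis genes described here are 60 genes for G2/M regulators, spindle and kinetochore proteins, cytokinesis proteins and condensins. They were listed by name, with earlier results of these data known, and matched by symbol. Genes were kept where the mean over the libraries was at least 1 CPM, the count scaled to a common library size. All 60 of the 60 were found among the 20286 gene identifiers of the count tables, and all 60 passed that minimum and the filter on low counts that left 12698 genes to test. The lowest mean among them was 7.92 CPM and the lowest count in any library was 103, so no member was lost or admitted through low counts. The RNA was from HLE, a human cell line established from a hepatocellular carcinoma. The labels give 2 stable populations with 2 libraries each: HLE with the empty vector (Vector) and HLE with stable expression of CYR61 (symbol CCN1), which encodes a protein secreted into the matrix. No other agent is named. The series description calls the replicates independent cultures of the whole stable population, so p-values measure the spread between cultures and not between separately made populations. All values are for bulk RNA, in which a larger share of cells in G2 or mitosis and more transcript per cell cannot be told apart.

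Mitosis is driven by cyclin B bound to CDK1, which is switched on by CDC25 phosphatases and carried forward by the Polo-like and Aurora kinases. Kinetochores then attach chromosomes to spindle microtubules while the spindle checkpoint holds back the anaphase-promoting complex (APC/C), and CDC20 with that ubiquitin ligase releases separase and ends cyclin B activity. Most of these genes are transcribed in late S phase, G2 and mitosis, through the MuvB complex with B-MYB and FOXM1, and many of their promoters carry a cell cycle genes homology region (CHR) and CCAAT boxes bound by NF-Y. The same genes are used as proliferation markers in liver tumours.

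Depth ran from 16186988 estimated counts in CYR61 2 to 21588822 in vector 2. CCN1, measured as a check of the labels, was at 221 and 218 CPM in vector 1 and 2 and at 8088 and 8616 CPM in CYR61 1 and 2 (log2 fold change 5.25, edgeR adjusted p = 1.33e-08). Of 6 hepatocyte markers, ALB, TTR and APOB were listed at 0 counts in all 4 libraries, APOA1 had at most 2 counts, SERPINA1 was at 0.744 to 1.13 CPM and TF at 10.1 to 11.7 CPM. The keratin genes KRT8 and KRT18 were at 2181 to 3242 and 1055 to 1417 CPM, and KRT19 was at or below 0.0906 CPM. The mesenchymal markers VIM and CDH2 were at 1495 to 1957 and 49.7 to 59.7 CPM. Among fibroblast markers, COL1A1 was at 22.9 to 31 CPM, PDGFRB was at 11 to 14.8 CPM, and COL1A2 had at most 1 count. Of the leukocyte markers, PTPRC and CD3E had at most 1 count and CD68 was at 48.1 to 67.2 CPM. Of the endothelial markers, PECAM1 had at most 1 count, VWF was at 0.996 to 1.58 CPM and CDH5 at 0.791 to 0.939 CPM.

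Most mitosis genes sat higher in CYR61-expressing cells, by less than 2-fold each. A gene is called here when its edgeR adjusted p is below 0.05, with the adjustment made over all tested genes. Of the 60 members, 13 rose (21.7%) and 0 fell, where 1.83% of all tested genes were called higher and 4.56% lower. The 13 were PLK1, CCNB1, KIF20A, AURKA, CCNA2, MKI67, PTTG1, TACC3, UBE2C, CDCA3, CDC20, CDCA8 and NCAPH. At an unadjusted p below 0.05, edgeR had 38 members higher and 0 lower, where 9.77% of all tested genes were higher and 13.2% lower. DESeq2 called 24 members higher and 0 lower, where it called 2.83% of all genes higher and 4.37% lower. The median log2 fold change (CYR61 minus vector) was 0.43 over the members and -0.006 over all tested genes. The members ranged from -0.19 for SKA1 to 0.93 for HMMR, and 58 of 60 values were above 0. Of the 12698 tested genes, 6251 had values above 0.

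**Figure D1:**
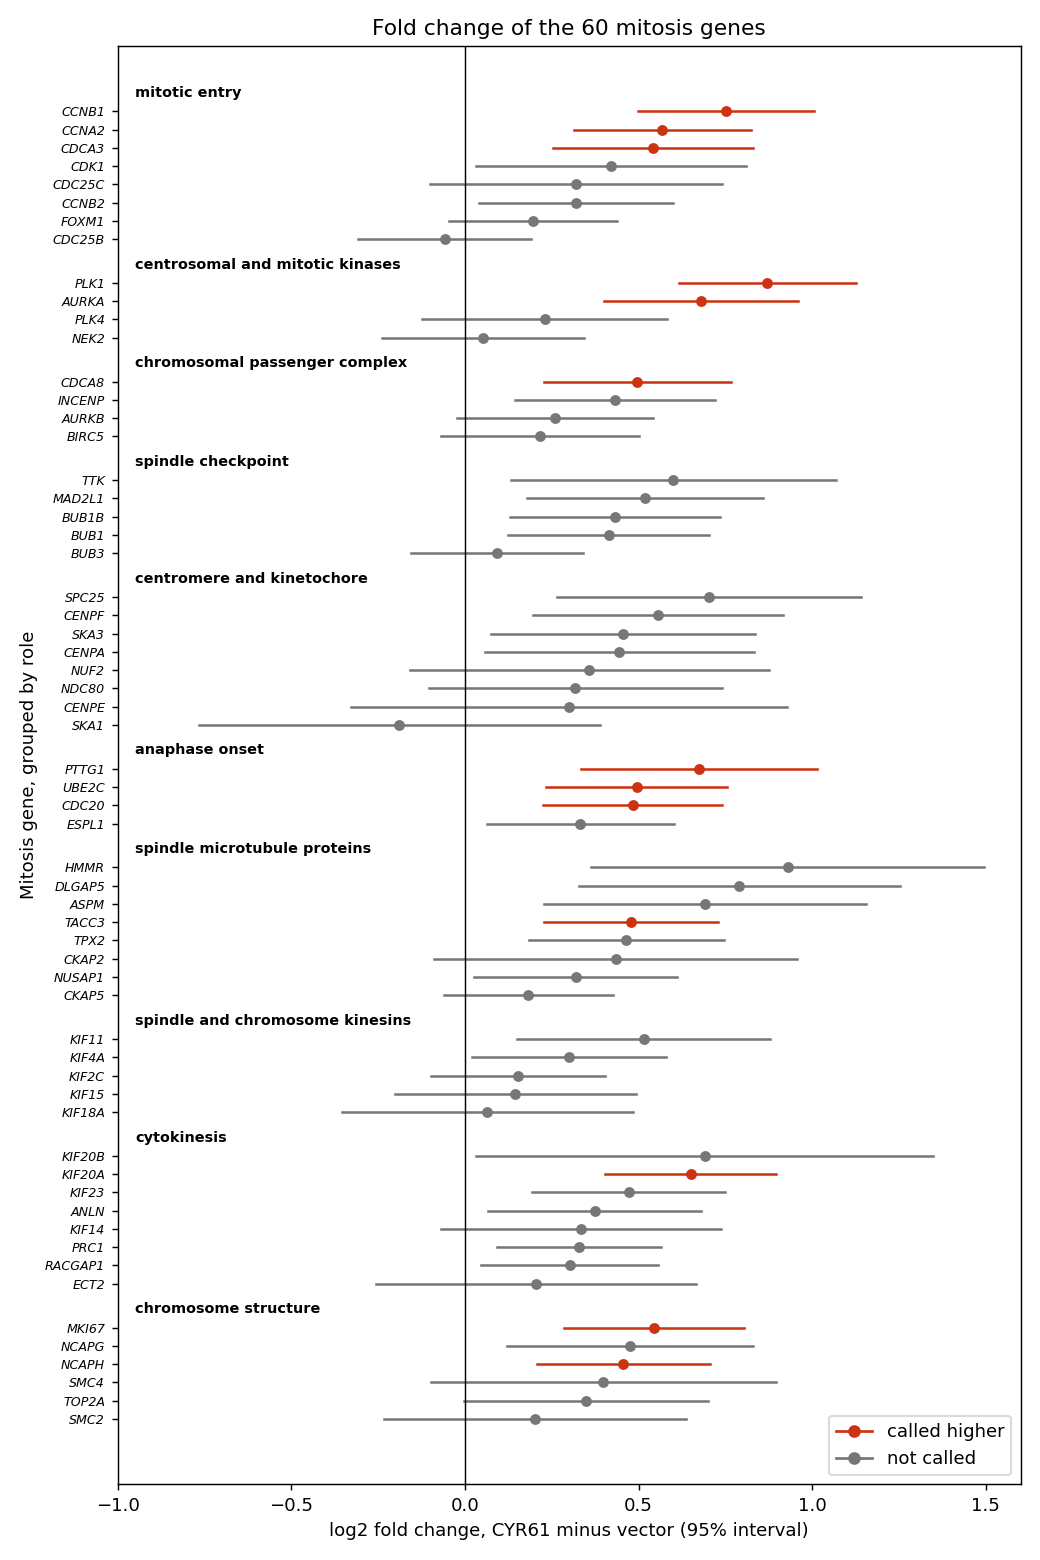
Log2 fold change (CYR61 minus vector, horizontal axis) of the 60 mitosis genes by role, with points for the edgeR estimate, bars for its 95% interval and red for the 13 genes called higher. The estimates of 58 genes lie to the right of 0, and those of CDC25B and SKA1 lie to the left with intervals that include 0.

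Both CYR61 libraries lay above both vector libraries for 43 of 60 members (71.7%), against 23.9% of all tested genes. No member had both CYR61 libraries below both vector libraries, and the other 17 overlapped. Taken as a share of all counts in a library, the 60 genes made up 0.573% in vector 1, 0.649% in vector 2, 0.858% in CYR61 1 and 0.749% in CYR61 2. The summed level was thus lowest in vector 1 and highest in CYR61 1, and vector 2 and CYR61 2 were the closest pair across groups. In that closest pair, 44 of 60 members were higher in CYR61 2 and their median log2 difference was 0.18. Over 10377 tested genes of at least 5 CPM, 47.2% were higher in CYR61 2 and the median was -0.02. Between vector 1 and CYR61 1, the farthest pair, 59 of 60 members were higher in CYR61 1 and the median was 0.64. Over the same 10377 genes these were 52.4% and 0.02.

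Of the 13 called members, 11 had a promoter window, and 5 of these 11 held a CHR in the letters given below. Only those letters were searched. These 5 are printed because this element is the one these genes are best known to share. The sequences are from RefSeq on GRCh38.p14, 5′ to 3′ on the gene's strand and ending at the base before the annotated start, except for CDCA3. Its match spans the start, so 30 bases around it are given. Capitals mark CHR matches (TTTGAA, its reverse complement TTCAAA, or TTCGAA, which reads the same on both strands) and CCAAT boxes (CCAAT or its reverse complement ATTGG). Where capitals run on as TTTGAATTGG, a CHR and an ATTGG share 1 base.
PLK1 (chr16:23678759-23678888, plus strand): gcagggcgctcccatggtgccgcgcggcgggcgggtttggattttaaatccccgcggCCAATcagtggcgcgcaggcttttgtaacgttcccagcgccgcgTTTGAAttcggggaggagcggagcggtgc
MKI67 (chr10:128126424-128126553, minus strand): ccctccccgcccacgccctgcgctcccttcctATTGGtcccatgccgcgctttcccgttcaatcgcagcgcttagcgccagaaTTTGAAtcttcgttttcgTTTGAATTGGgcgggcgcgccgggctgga
CDCA3 (chr12:6851272-6851301, minus strand): cgtggcgggaagTTTGAAactggtaacttc
CDC20 (chr1:43358851-43358980, plus strand): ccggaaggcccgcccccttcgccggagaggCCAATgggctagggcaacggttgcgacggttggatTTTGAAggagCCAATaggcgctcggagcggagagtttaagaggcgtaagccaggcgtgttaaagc
CDCA8 (chr1:37692386-37692515, plus strand): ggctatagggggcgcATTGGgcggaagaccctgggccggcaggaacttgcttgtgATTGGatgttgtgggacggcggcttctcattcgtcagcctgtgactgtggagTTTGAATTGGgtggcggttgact

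Counted from the base before the start as -1, the first base of the CHR was at -29 in PLK1, at -47 and -29 in MKI67, at -3 in CDCA3, at -178 and -65 in CDC20 and at -23 in CDCA8. The match of CDC20 at -178 (TTCAAA) and a CCAAT box of CDCA3 at -37 lie outside the stretches printed. The window searched ran from 250 bases before to 50 bases after each start, and 52 of the 60 members had a window in the RefSeq table. A CHR match was found for 41 of these 52 genes (78.8%), against 15.5% of 10183 tested genes with a window and 19.5% of all 27305 genes with a window. A CCAAT box was found for 38 of 52 (73.1%), against 43.5% of tested genes, and both motifs for 30 of 52 (57.7%), against 6.6%. Among the called members 5 of 11 with a window held a CHR and 10 of 11 a CCAAT box; among those not called these were 36 of 41 and 28 of 41. A match is a description of the letters only.

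**Figure D2:**
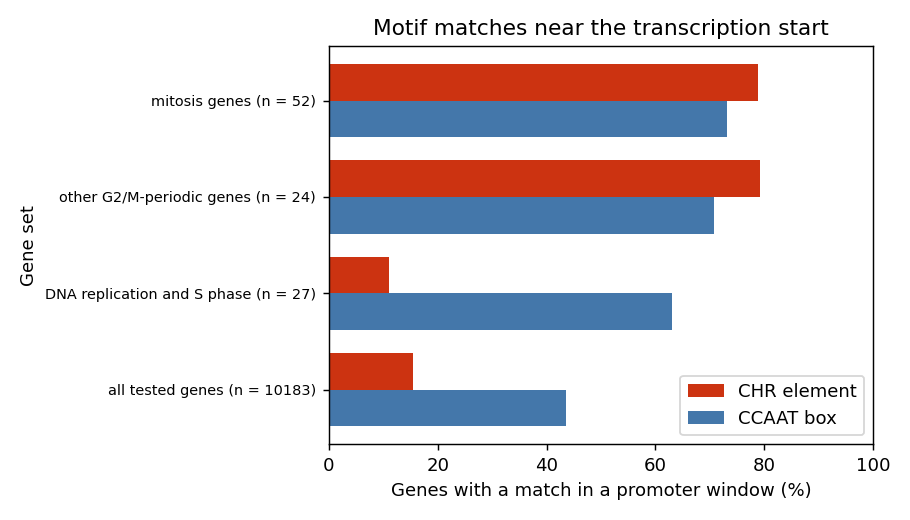
Share of genes (horizontal axis, percent) with a CHR element (red) or a CCAAT box (blue) in a promoter window, for the mitosis genes, 2 other gene lists and all tested genes. The CHR share was 78.8% for the mitosis genes, 79.2% for other G2/M-periodic genes, 11.1% for DNA replication and S phase genes and 15.5% for all tested genes.

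Among the 8 genes of mitotic entry, 3 rose and 5 were not called, with a median log2 fold change of 0.37. CCNB1, the cyclin that activates CDK1 at entry (ENSG00000134057, hg38 chromosome 5, 69167010 to 69178245), was at 133 and 132 CPM in the vector libraries and at 236 and 211 CPM in the CYR61 libraries. Both CYR61 values stood well clear of a vector pair that nearly coincided. CCNB1 rose 1.68-fold (log2 fold change 0.75 with a standard error, SE, of 0.11, edgeR adjusted p = 0.00444), and the call held in all 4 fits that each lacked 1 library (edgeR adjusted p at most 0.0097). CCNA2, the cyclin of S phase and early mitosis (chromosome 4, 121816444 to 121823933), was at 80.2 and 82.6 CPM and then 124 and 117 CPM. It rose 1.48-fold (log2 fold change 0.57 with SE 0.11, edgeR adjusted p = 0.0173), with no overlap between groups. The call was lost without vector 1 (adjusted p = 0.133) and without vector 2 (adjusted p = 0.0775). CDCA3, an adaptor of a ubiquitin ligase that triggers mitotic entry, was at 41.7 and 37.5 CPM in vector and at 56.8 and 58.6 CPM in CYR61 libraries. It rose 1.46-fold (edgeR adjusted p = 0.036), and was not called without vector 1 (0.108), vector 2 (0.251) or CYR61 2 (0.0566). Exons of CCNA2 overlap those of EXOSC9 on the other strand by 254 of 2798 bases, and exons of CDCA3 overlap those of GNB3 by 549 of 5653. No source used here gives the strandedness of the libraries, so reads there cannot be assigned to either gene.

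CDK1, the catalytic partner of these cyclins (chromosome 10, 60778331 to 60794852), was at 65.3 and 84.6 CPM in vector and at 116 and 84.1 CPM in CYR61 libraries. CYR61 2 lay just below vector 2, and the log2 fold change of 0.42 was not called (95% interval 0.03 to 0.81, edgeR adjusted p = 0.184). The phosphatase gene CDC25B, an activator of CDK1, was at 162, 149, 147 and 151 CPM in vector 1, vector 2, CYR61 1 and CYR61 2. Its groups overlapped and its log2 fold change was -0.06 (95% interval -0.31 to 0.19). CCNB2 had a log2 fold change of 0.32, CDC25C of 0.32 and FOXM1, the transcription factor of G2/M genes, of 0.20 (adjusted p = 0.315). None of these 3 was called. Exons of FOXM1 overlap those of ITFG2 on the other strand by 15.9% of their length.

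PLK1 and AURKA were the called genes among the 4 centrosomal and mitotic kinases. PLK1, the Polo-like kinase needed for entry, spindle assembly and cytokinesis (ENSG00000166851, chromosome 16, 23677656 to 23690367), was at 175 and 158 CPM in the vector libraries and at 294 and 316 CPM in the CYR61 libraries. It rose 1.83-fold (log2 fold change 0.87 with SE 0.11, edgeR adjusted p = 0.00195) and stayed called when any library was left out, with log2 fold changes of 0.80 to 0.95. This was the largest fold among the called members. AURKA, the kinase of centrosome maturation and spindle assembly (chromosome 20, 56369389 to 56392337), was at 70.6 and 80.7 CPM and then 128 and 115 CPM. It rose 1.6-fold (log2 fold change 0.68 with SE 0.13, edgeR adjusted p = 0.0119). Without vector 1 it was not called (adjusted p = 0.0929). The groups of both genes stood apart. PLK4, the kinase that starts centriole duplication, was at 16.3 and 18.7 CPM in vector and 20.9 and 20.3 CPM in CYR61 libraries, and NEK2, which separates centrosomes, at 61.5 and 65 CPM in vector and 70.8 and 60.2 CPM in CYR61 libraries. Their log2 fold changes were 0.23 (95% interval -0.12 to 0.58) and 0.05 (95% interval -0.24 to 0.34), and neither was called.

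Of the 4 subunits of the chromosomal passenger complex, which corrects faulty attachments and moves to the spindle midzone at anaphase, CDCA8 rose. CDCA8, encoding borealin (chromosome 1, 37692418 to 37709719), was at 58.6 and 56.8 CPM in vector and at 78.1 and 84.7 CPM in CYR61 libraries. It rose 1.41-fold (log2 fold change 0.50 with SE 0.12, edgeR adjusted p = 0.0391). This call was close to the threshold and was lost without vector 1 (0.188), vector 2 (0.218) or CYR61 2 (0.111). The scaffold gene INCENP was at 165, 150, 192 and 234 CPM in vector 1, vector 2, CYR61 1 and CYR61 2, with no overlap (log2 fold change 0.43, edgeR adjusted p = 0.0782), and DESeq2 called it higher (adjusted p = 0.0363). BIRC5, encoding survivin, was at 128 and 143 CPM and then 171 and 143 CPM, and CYR61 2 fell within the vector range (log2 fold change 0.22, adjusted p = 0.352). AURKB, the kinase of the complex, had a log2 fold change of 0.26 and was not called.

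None of the 5 spindle checkpoint genes was called by edgeR. Both CYR61 libraries lay above both vector libraries for all 5, and for 23.9% of all tested genes. At an unadjusted p below 0.05, edgeR had 4 of the 5 higher and 0 lower, where 9.77% and 13.2% of all tested genes were. DESeq2 called BUB1, BUB1B and MAD2L1 higher (adjusted p = 0.0471, 0.0497 and 0.0356), where it called 2.83% of all genes higher. TTK, the kinase that starts checkpoint signalling (chromosome 6, 80003887 to 80042527), was at 17.3 and 25.4 CPM in vector and at 37.2 and 27.4 CPM in CYR61 libraries. CYR61 2 exceeded vector 2 only narrowly, and the log2 fold change of 0.60 had a 95% interval of 0.13 to 1.07 (edgeR adjusted p = 0.119). BUB3, which docks the checkpoint proteins, was at 136, 128, 142 and 139 CPM in vector 1, vector 2, CYR61 1 and CYR61 2, the smallest log2 fold change of the group at 0.09 (95% interval -0.15 to 0.34). Log2 fold changes were 0.41 for BUB1, 0.43 for BUB1B and 0.52 for MAD2L1, with edgeR adjusted p = 0.0912, 0.0926 and 0.0752.

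The 8 centromere and kinetochore genes had a median log2 fold change of 0.40 and no edgeR call. CENPF was called higher by DESeq2, which called 2.83% of all genes higher. At an unadjusted p below 0.05, edgeR had 4 higher and 0 lower, where 9.77% and 13.2% of all tested genes were. SPC25, a subunit of the microtubule-binding NDC80 complex (chromosome 2, 168834132 to 168913371), was at 5.78 and 6.29 CPM in vector and at 10.8 and 8.83 CPM in CYR61 libraries. Its groups did not overlap (log2 fold change 0.70, 95% interval 0.26 to 1.14, adjusted p = 0.064). Its partners NDC80 (0.32) and NUF2 (0.36) overlapped between groups and were not called. SKA1, of the SKA complex that tracks microtubule ends, was at 6.58, 10.8, 8.79 and 6.45 CPM in vector 1, vector 2, CYR61 1 and CYR61 2. The groups of SKA1 overlapped (log2 fold change -0.19, 95% interval -0.77 to 0.39). Its partner SKA3 had a log2 fold change of 0.46, with both CYR61 libraries above both vector libraries (adjusted p = 0.141). CENPA, the centromeric histone H3 variant, CENPE, a kinetochore motor, and CENPF had log2 fold changes of 0.44, 0.30 and 0.56, none called by edgeR. CENPA shares 6.96% of its exon bases with SLC35F6 on the same strand. CENPE was at 26 and 13.8 CPM in CYR61 1 and 2, and the log2 difference within the CYR61 pair, 0.91, was exceeded among the members only by that of KIF20B (0.93).

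At anaphase onset, 3 of 4 genes rose. CDC20, the activator of the APC/C and target of the checkpoint (chromosome 1, 43358955 to 43363203), was at 221 and 198 CPM in vector and at 280 and 306 CPM in CYR61 libraries. It rose 1.4-fold (log2 fold change 0.48 with SE 0.12, edgeR adjusted p = 0.0363), and was not called without vector 1 (0.0726), vector 2 (0.27) or CYR61 2 (0.109). UBE2C, the ubiquitin-conjugating enzyme of the APC/C (chromosome 20, 45812576 to 45816957), was at 98.3 and 87.4 CPM and then 130 and 131 CPM. It rose 1.41-fold (edgeR adjusted p = 0.0354), and the call was lost in each of the 4 fits lacking 1 library (0.0557 to 0.285). For both genes the gap between groups exceeded the gap within either group. PTTG1, encoding securin, which holds separase inactive (chromosome 5, 160421822 to 160428744), was at 46.6 and 58.6 CPM in vector and at 92.2 and 75.8 CPM in CYR61 libraries. It rose 1.6-fold (log2 fold change 0.67 with SE 0.15, edgeR adjusted p = 0.0287), but was not called without vector 1 (0.187), without CYR61 1 (0.0649) or with scaling by library size alone (0.0624). PTTG1 has near-identical copies, so its reads may be divided among them; PTTG2 was listed at 0 counts in all 4 libraries. ESPL1, encoding separase, was at 145 and 127 CPM in vector and 162 and 180 CPM in CYR61 libraries, with no overlap and no call (log2 fold change 0.33, adjusted p = 0.132).

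**Figure D3:**
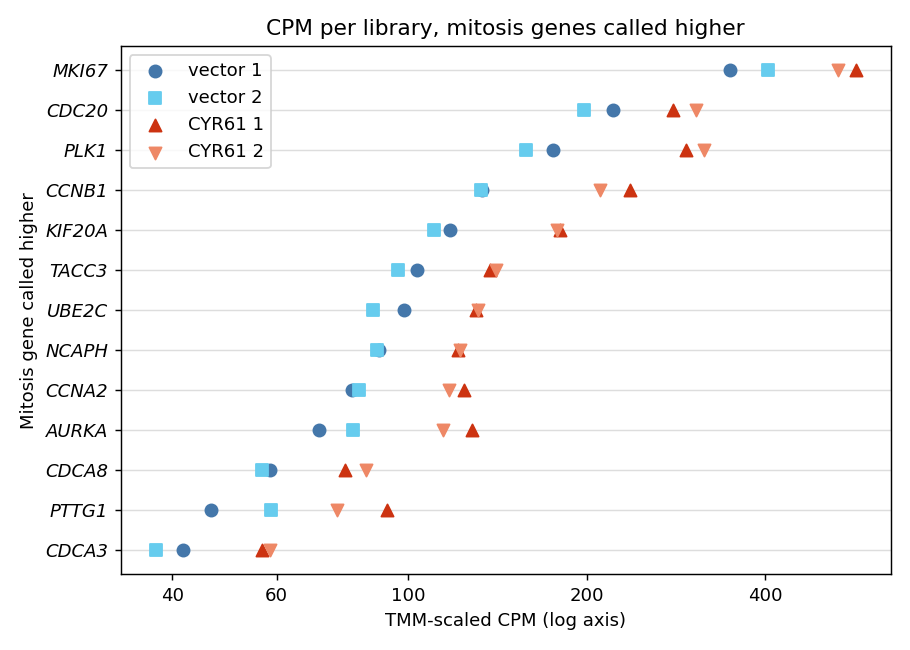
CPM (horizontal log axis) of the 13 mitosis genes called higher, with 1 symbol per library: vector 1 and 2 in blue, CYR61 1 and 2 in red and orange. For each of the 13 genes both CYR61 libraries lie to the right of both vector libraries.

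Of the 8 spindle microtubule proteins, TACC3 was called by edgeR. TACC3, which stabilises kinetochore fibres at the spindle together with clathrin and CKAP5 (chromosome 4, 1721490 to 1745176), was at 103 and 96.2 CPM in vector and at 137 and 140 CPM in CYR61 libraries. It rose 1.39-fold (log2 fold change 0.48 with SE 0.11, edgeR adjusted p = 0.0345). The call was lost when any library was left out (0.0667 to 0.258). HMMR, a spindle-associated hyaluronan receptor (chromosome 5, 163460203 to 163491945), was at 13.9 and 21.2 CPM in vector and at 41.6 and 25.2 CPM in CYR61 libraries. All CYR61 values exceeded all vector values, but CYR61 1 stood far above CYR61 2. Its log2 fold change of 0.93 was the largest of the 60 members and was not called by edgeR (SE 0.25, adjusted p = 0.0589), while DESeq2 called it (adjusted p = 0.00623). DLGAP5 (log2 fold change 0.79, edgeR adjusted p = 0.0516) and TPX2, the activator of AURKA (0.46, adjusted p = 0.0578), also lay just outside the threshold. CKAP5, a microtubule polymerase, was at 299 and 320 CPM in vector and 365 and 338 CPM in CYR61 libraries (log2 fold change 0.18, 95% interval -0.06 to 0.43). ASPM, CKAP2 and NUSAP1 had log2 fold changes of 0.69, 0.43 and 0.32 and were not called by edgeR. DESeq2 also called DLGAP5 (adjusted p = 0.00714), TPX2 (0.0104) and ASPM (0.011) higher, where it called 2.83% of all genes higher. NUSAP1 shares exons on its own strand with a gene model without a symbol, and the log2 fold change of the locus sum was 0.31.

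The 5 kinesins of the spindle and chromosome arms had the smallest median log2 fold change of the roles, 0.15. None was called by edgeR, and KIF11 was called by DESeq2, which called 2.83% of all genes higher. At an unadjusted p below 0.05, edgeR had 2 higher and 0 lower, where 9.77% and 13.2% of all tested genes were. KIF11, the motor that pushes spindle poles apart (chromosome 10, 92593286 to 92655395), was at 64.2 and 81.2 CPM in vector and at 118 and 89.3 CPM in CYR61 libraries. The groups did not overlap (log2 fold change 0.52, 95% interval 0.15 to 0.88, edgeR adjusted p = 0.0939). KIF18A, which damps chromosome movements, was at 19.9 and 24.6 CPM in vector and 26.7 and 19.7 CPM in CYR61 libraries, where CYR61 2 was the lowest library (log2 fold change 0.06, 95% interval -0.35 to 0.48). KIF15, KIF2C and KIF4A had log2 fold changes of 0.15, 0.15 and 0.30. KIF4B, a near-identical copy of KIF4A, had 2 to 5.03 estimated counts per library.

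In the cytokinesis group KIF20A was called among 8 genes. KIF20A, the midzone motor that carries the passenger complex and PLK1 (chromosome 5, 138178719 to 138187715), was at 118 and 111 CPM in vector and at 180 and 178 CPM in CYR61 libraries. The libraries of each group lay close together and the groups stood apart. KIF20A rose 1.57-fold (log2 fold change 0.65 with SE 0.11, edgeR adjusted p = 0.00787), and was not called without vector 2 (0.0586). KIF20B, a related motor with a similar estimate of 0.69, was at 20.9, 35.5, 59.7 and 31.3 CPM in vector 1, vector 2, CYR61 1 and CYR61 2. CYR61 2 was below vector 2, and the 95% interval ran from 0.03 to 1.35 (adjusted p = 0.197). ECT2, the exchange factor that activates RhoA at the cell equator, was at 87.1 and 127 CPM and then 148 and 98.6 CPM, with overlapping groups (log2 fold change 0.20, 95% interval -0.26 to 0.67). KIF23 and RACGAP1, which form the centralspindlin complex, had log2 fold changes of 0.47 (edgeR adjusted p = 0.0531) and 0.30 (0.146). KIF14, ANLN and PRC1 had 0.33, 0.37 and 0.33. None of these 5 was called by edgeR, and DESeq2 called KIF23 higher (adjusted p = 0.0152). PRC1 shares 57.6% of its exon bases with a gene model on the same strand, and the locus sum gave 0.32.

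Among the 6 genes of chromosome structure, MKI67 and NCAPH rose. MKI67, encoding the Ki-67 protein that coats mitotic chromosomes and marks proliferating cells (chromosome 10, 128096659 to 128126385), was at 349 and 404 CPM in vector and at 567 and 531 CPM in CYR61 libraries. It rose 1.46-fold (log2 fold change 0.54 with SE 0.12, edgeR adjusted p = 0.0234), and was not called without vector 1 (0.188) or CYR61 1 (0.0629). NCAPH, the kleisin subunit of condensin I (chromosome 2, 96335787 to 96373845), was at 89.4 and 88.4 CPM and then 122 and 122 CPM. Replicates of NCAPH nearly coincided within each group. It rose 1.37-fold (log2 fold change 0.46 with SE 0.11, edgeR adjusted p = 0.0399), and with so small a margin the call was lost when any library was left out (0.0852 to 0.247). NCAPG, another subunit of condensin I, was at 45.5 and 55.3 CPM in vector and 79.2 and 60.9 CPM in CYR61 libraries (log2 fold change 0.48, adjusted p = 0.106). About 33.1% of its exon bases overlap LCORL on the other strand. SMC2, an ATPase shared by both condensins, was at 61.5 and 82.9 CPM and then 99.1 and 66.8 CPM, and its groups overlapped (log2 fold change 0.20, 95% interval -0.23 to 0.64). Its partner SMC4 (0.40) and TOP2A, the topoisomerase that untangles sister chromatids (0.35, adjusted p = 0.22), overlapped between groups as well.

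A call depends on the spread between replicates as well as on the size of the change, and called and uncalled members differed in both. Of 17 members with a log2 fold change of at least 0.5, 8 were called. The median SE was 0.12 over the 13 called members and 0.16 over the other 47. The 47 uncalled members had a median log2 fold change of 0.33, and the 95% interval excluded 0 for 25 of them. Within the vector pair the median absolute log2 difference was 0.15 for called and 0.24 for uncalled members, and within the CYR61 pair it was 0.10 and 0.29.

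The sign and size of the difference between replicates followed GC content. The GC content of the longest transcript had a median of 42.6% over the members, from 34.2% for KIF20B to 59.6% for INCENP, against 48.9% over all tested genes. It was 49.3% over the called members and 41.2% over the uncalled. Across the 60 genes, which share their 4 libraries and are not independent, Spearman's rho with GC content was -0.80 for the log2 difference of vector 2 over vector 1. For CYR61 1 over CYR61 2 it was -0.87. The same values over 10363 tested genes of at least 5 CPM were -0.73 and -0.78. For the log2 fold change between groups rho was -0.04 over the members and -0.17 over those genes. GC-poor members were thus higher in vector 2 than in vector 1 and higher in CYR61 1 than in CYR61 2, with little relation between GC content and the difference between groups.

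**Figure D4:**
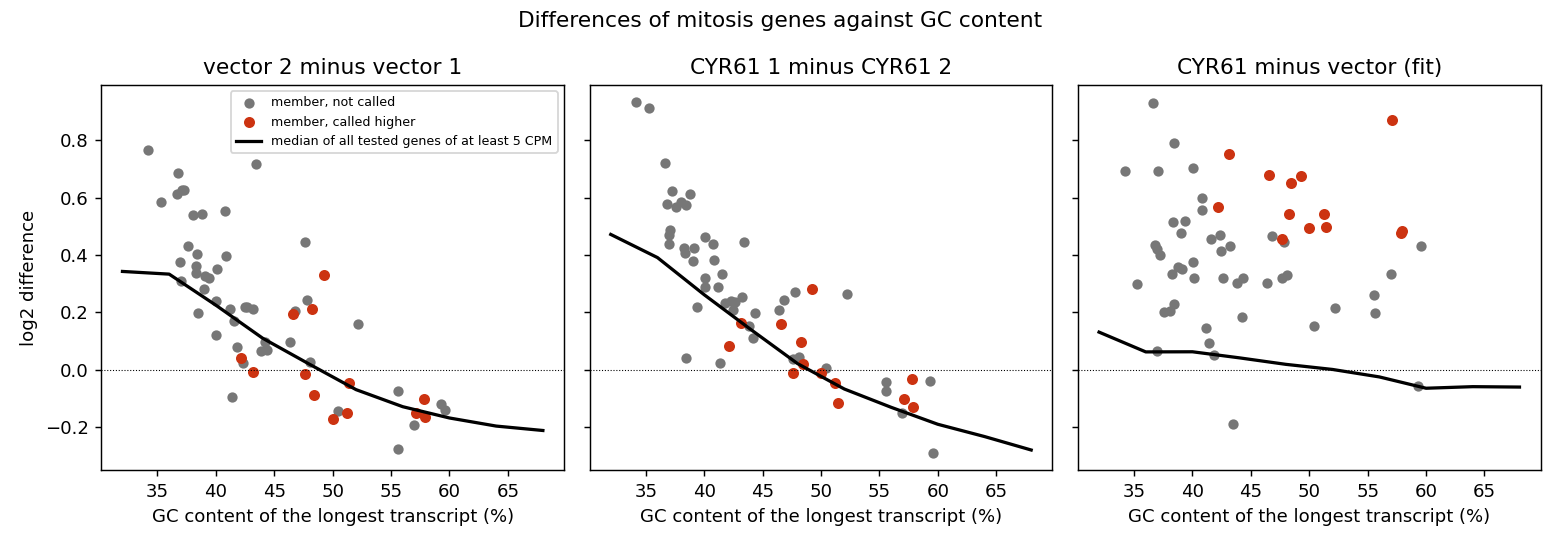
Log2 difference (vertical axis) against GC content (horizontal axis, percent) for vector 2 over vector 1, for CYR61 1 over CYR61 2, and for the fitted change between groups, with points for the 60 mitosis genes (red where called higher) and a line for the median of all tested genes of at least 5 CPM in bins of GC content. The points slope down in the first pair of panels (rho -0.80 and -0.87) and show little slope in the last (rho -0.04), where 58 of 60 lie above 0.

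The order of the libraries showed the same pattern gene by gene. For 28 members the order from low to high was vector 1, vector 2, CYR61 2, CYR61 1, with a median GC content of 42.4%. For 11 members, among them PLK1, CDC20, TACC3 and INCENP, both pairs were turned round, to vector 2, vector 1, CYR61 1, CYR61 2, and the median GC content was 55.6%. For 13 members, among them CDK1, TOP2A, SMC4 and KIF20B, CYR61 2 dropped below vector 2, and the median GC content was 38%. The remaining 8 had other orders. With the GC trend of each library removed, 46 of 60 members (76.7%) were called higher and 0 lower, against 17.1% of all tested genes called higher and 11.8% lower. The 46 held all 13 genes called before, and 51 of 60 members (85%) had both CYR61 libraries above both vector libraries, against 36.8% of tested genes. The log2 fold changes themselves shifted by a median of 0.03 and by at most 0.14.

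After this removal all 4 anaphase genes and all 8 spindle microtubule genes were called higher, as were 7 of 8 cytokinesis genes, 6 of 8 entry genes, 5 of 6 chromosome structure genes, 4 of 5 checkpoint genes, 4 of 8 kinetochore genes, 3 of 4 passenger complex genes, 3 of 5 kinesins and 2 of 4 kinases. CDK1 then had a log2 fold change of 0.37 (edgeR adjusted p = 0.00341), HMMR of 0.88 (0.00123) and TOP2A of 0.32 (0.00643). PLK1 had the largest value, 0.99. The genes still not called included NEK2 (0.04), KIF18A (0.02), BUB3 (0.08), CDC25B (0.08) and SKA1 (-0.19).

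The number of called members also depended on single libraries. With TMM scaling and no GC removal, leaving out vector 1 gave 3 members called higher, vector 2 gave 14, CYR61 1 gave 9 and CYR61 2 gave 29. All-gene shares called higher in these fits were 0.802%, 1.42%, 1.48% and 4.13%. Of the original 13 calls, 3, 5, 8 and 7 were kept in the same order, and PLK1 and CCNB1 were kept in all 4. In 53 of 60 members the log2 fold change stayed above 0 in all 4 fits. No member was called lower in any fit that left a library out.

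**Figure D5:**
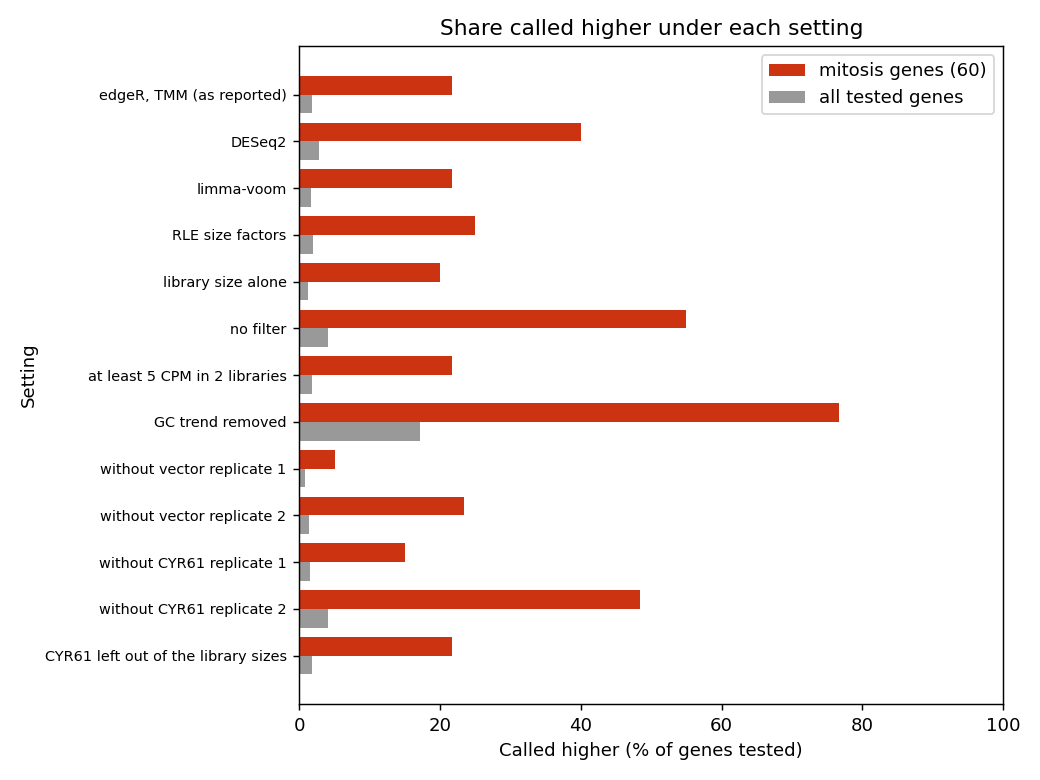
Share of genes called higher (horizontal axis, percent) among the 60 mitosis genes (red bars) and among all tested genes (grey bars) under the reported fit and the alternatives plotted. Among these settings the members' share was lowest without vector 1 and highest with the GC trend removed, at 76.7%. The share of all genes was also lowest without vector 1 and highest with the GC trend removed, at 17.1%. Across the other settings the shares did not always rise together.

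Other genes of the pathway were read from 8 lists with 170 genes in all. In the list of other G2/M-periodic genes 7 of 32 rose and 0 fell, where 1.83% and 4.56% of all tested genes did. In that list 31 of 32 log2 fold changes were above 0, and the median was 0.36. FAM83D, which guides the kinase CK1 to the spindle, was at 59.4 and 55.3 CPM in vector and 103 and 115 CPM in CYR61 libraries (log2 fold change 0.93, edgeR adjusted p = 0.00206). KNSTRN, a kinetochore and spindle protein gene, was at 36.9 and 39.3 CPM in vector and 66.1 and 58.1 CPM in CYR61 libraries (0.71, edgeR adjusted p = 0.0125). In both genes the groups stood apart. DEPDC1B, CKS2, SPAG5, CDCA2 and LMNB1 rose as well. The number of calls in this list depended on which library was left out. Its median log2 fold change was 0.26 when vector 1 was dropped and 0.39 when vector 2 was. It was 0.21 when CYR61 1 was dropped and 0.45 when CYR61 2 was. Over all tested genes the medians of these fits ran from -0.02 to 0.01. Removing the GC trend gave 21 of 32 genes called higher and 0 lower, where 17.1% and 11.8% of all tested genes were.

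The other 7 lists, with 138 genes, had no edgeR call; at an unadjusted p below 0.05 edgeR had 16 higher and 4 lower, where the shares over all tested genes were 9.77% and 13.2%. DESeq2 called 3 higher and 0 lower, where it called 2.83% of all genes higher and 4.37% lower. By limma-voom 0 were called, where it called 1.72% of all tested genes higher. Median log2 fold changes were 0.26 over 31 other kinetochore genes, 0.14 over 17 APC/C subunits and regulators, 0.10 over 15 cohesin genes, 0.09 over 14 genes for brakes on CDK1 and exit phosphatases, 0.04 over 15 genes of MuvB, DREAM and NF-Y and 0.03 over 15 genes of centrosome duplication and microtubule nucleation. The median was 0.01 over 31 DNA replication and S phase genes, of which 17 were above 0 and 14 below. With the GC trend removed, 37 of the 138 genes were called higher and 5 lower, where 17.1% and 11.8% of all tested genes were. These were 11 higher of 31 other kinetochore genes, 6 of 17 APC/C genes, 5 of 15 MuvB, DREAM and NF-Y genes, 4 of 14 CDK1 brakes (with 1 lower), 2 of 15 centrosome genes, 1 of 15 cohesin genes, and 8 of 31 S phase genes (with 4 lower). Differences between the lists were not tested.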

How the data were processed

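RNA-seq of 4 HLE libraries was compared, 2 Vector and 2 CYR61. The authors deposited estimated counts per Ensembl gene, 1 table per library; 11.2% to 12% of the values were not whole. The submitters' processing notes name hg38 as build, and TopHat2 (2.1.1), Cuffdiff (1.3.0) and Cufflinks (2.2.1) as tools. No source used here gives the counting program, annotation or strandedness. Counts were rounded, filtered by edgeR's filterByExpr and scaled by TMM, and CPM uses TMM-scaled library sizes. edgeR 4.0.16 (quasi-likelihood test, group only, R 4.3.3) was fitted on all 12698 tested genes with Benjamini-Hochberg adjustment. SE is the absolute log2 fold change over the square root of F. A gene name table gave symbols for 20228 of 20286 identifiers; positions, exon lengths and GC content were taken from GENCODE 29 on GRCh38 (20212 matched). The GC trend was a natural spline with 5 degrees of freedom per library, entered as offsets. Scripts were tested on simulated data. There edgeR recovered 14 of 50 genes changed 1.5-fold, 38 of 50 changed 2-fold and 50 of 50 changed 4-fold. It also called 12 genes that had not been changed. The simulated counts held no GC trend, so they could not check its removal.

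The members, lists and alternatives were chosen with earlier results of these data known. CPM per library was given for each called member and, per role, for the uncalled members with the largest and smallest change. Outside the members, up to 2 called genes per list and direction were given in full. Promoters were printed for called members with a CHR. Other genes named were chosen after their values were seen. The alternatives were DESeq2 1.42.0, limma-voom (limma 3.58.1), RLE factors, library size alone, no filter, 5 CPM in 2 libraries, the replicate block, GC removal, each library left out (the lone library of its group is then assumed to vary like the others), and CCN1 left out of library sizes. A crossed block and locus sums for PRC1 and NUSAP1 were added after seeing the data.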

Additional observations from a re-analysis of the deposited data

How the results depend on the processing

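The count of 13 members called higher stayed within 1.5 times under limma-voom, RLE size factors, library size alone, the stricter filter, library sizes without CCN1 and the locus sums. It was 24 with DESeq2, 33 without a filter and 46 with the GC trend removed, and 3 to 29 with a library left out. The count of members called lower was 0 under every alternative. All genes called numbered 811, and 1677 without a filter, 3667 with the GC trend removed and 481 to 1331 with a library left out. Higher and lower calls were 232 and 579 in the reported fit, 359 and 555 with DESeq2, 648 and 1029 without a filter, and 2171 and 1496 with the GC trend removed. In the same order, higher calls made up 1.83%, 2.83%, 4.03% and 17.1% of the genes tested. The median over the members stayed between 0.30 and 0.53.

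The labels number the replicates 1 and 2 in both groups without saying that a number marks a shared batch. Deviations of same-numbered libraries from their group means had a correlation of -0.38 across 12698 genes. With the replicate number as a block, 3 members were called higher (PLK1, CCNB1 and HMMR), and of 391 genes called 53 were higher (0.417% of those tested) and 338 lower. With the block and the GC trend removed, 41 members were called higher. Of 2505 genes called, 1453 were higher (11.4% of those tested) and 1052 lower. With the numbers crossed, a setting added after seeing the data, 53 members were called higher. Of 5624 genes called, 2748 were higher (21.6% of those tested) and 2876 lower.

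A turn in sign occurred for 7 uncalled members. CDC25B was at 0.077 with the GC trend removed and at 0.075 with the GC trend removed and the replicate block. With a library left out, CDC25B ranged from -0.11 to 0.0028, KIF18A from -0.16 to 0.26, ECT2 from -0.11 to 0.51, SKA1 from -0.50 to 0.22, NEK2 from -0.059 to 0.16, CENPE from -0.22 to 0.68 and SMC2 from -0.10 to 0.46. The cause of these changes was not tested. With 2 cultures per group, small changes in genes of large spread could not be resolved.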

Other observations

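Compared per kilobase of exon, the steady levels of the mitosis genes in vector cells spanned a wide range. CDC20 had the highest level at 103 CPM per kilobase, followed by TPX2 at 73.5, UBE2C at 72.2, TOP2A at 54.9 and CCNB1 at 51.9. The lowest were CENPE at 1.72, SKA1 at 2.95 and SPC25 at 3.28. PLK1 was 16 of 60 in this order, at 35 CPM per kilobase in vector and 64 in CYR61-expressing cells. Exon length here is the union of all annotated exons, which understates the level of genes with long rare exons.

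Among the DNA replication and S phase genes, which had no edgeR call, the extremes were CDT1, the licensing factor (log2 fold change -0.45, edgeR adjusted p = 0.0943), E2F1 (-0.41, adjusted p = 0.0757) and GINS2, a subunit of the replicative helicase (0.44, adjusted p = 0.0807). These genes were chosen after their values were seen.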
